A study of Mus musculus with 8 samples.

Results

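The 42 genes described here encode parts of the machinery that copies DNA and divides chromosomes: 22 replication genes and 20 mitosis genes, out of 20660 genes named on the array. They were chosen as a list of gene names, by function, with earlier results of these data known. Each gene was read from the probe matched to one of its transcripts, and where several probes matched, from the one with the highest mean signal. All 42 genes had a probe. On all 8 arrays 41 of them were well above background by the scanner software's own mark, and Ccne2, one of the replication genes, was on 3 (WT, Ezh2_deleted and Double_mutant).

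The study grafted mouse blood stem cells that carried the leukemia-type mutant RUNX1S291fs, a deletion of the Polycomb methyltransferase gene Ezh2, or both, and measured RNA in LSK cells of the recipients' bone marrow. LSK cells lack lineage markers and carry c-Kit and Sca-1, a fraction made up of stem cells and early progenitors. Donor CD45.2 cells of strain C57BL/6 all carried Cre-ERT, with either Ezh2wt/wt or Ezh2flox/flox, and received RUNX1S291fs or an empty control by retrovirus. Recipients were lethally irradiated and also received wild-type CD45.1 marrow, so 2 cell populations shared each marrow. The 4 groups of CD45.2 cells taken 4 months after transplantation were WT (Ezh2wt/wt, empty control), Ezh2_deleted (Ezh2Δ/Δ, empty control), RUNX1_mutant (Ezh2wt/wt, RUNX1S291fs) and Double_mutant (Ezh2Δ/Δ, RUNX1S291fs), each pooled from 2 to 4 mice. Double_MDS and Double_MDS_ML were CD45.2 cells with both lesions from single moribund mice: the Double_MDS mouse had myelodysplastic syndrome (MDS), and the Double_MDS_ML mouse MDS together with myeloid leukemia. Wild-type CD45.1 cells sorted at 4 months out of recipients of the same kinds make up CD45.1_in_RUNX1_mutant (RUNX1_mutant recipients) and CD45.1_in_double_mutant (Double_mutant recipients). Whether they came from the very mice behind the CD45.2 arrays, whether they were pooled and how old the mice were are not stated in the labels. Each group was 1 array, so no group has a replicate. The spread used below is that of the 3 wild-type arrays (WT and both CD45.1 arrays), which differ in donor allele, marrow and slide. Of these, only the WT cells are described with Cre-ERT and the empty control.

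Every replication origin is licensed in G1, when the loaders Cdc6 and Cdt1 place the Mcm2-7 helicase on DNA. In S phase Mcm10, Cdc45 and the GINS complex turn the helicase into a moving fork, where polymerase, primase, the clamp Pcna and its loader work on nucleotides supplied by ribonucleotide reductase. Mitosis is driven by B-type cyclins with Cdk1, by Polo and Aurora kinases, and is held by the spindle checkpoint until Cdc20 opens the way to chromosome separation. The timing is set largely by transcription: E2F factors switch on replication genes at the G1 to S border, and the MuvB complex with B-Myb (Mybl2) and Foxm1 switches on mitosis genes later, at a promoter element called CHR. Most adult stem cells rest outside this cycle, while their progenitors divide often.

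Both elements can be seen in the promoters of the members. RefSeq promoter windows (build GRCm38.p6, 250 bases before to 50 after the start of the gene) matched 34 of the 42 genes. The E2F letters searched were TTTGGCGC, TTTCCCGC, TTTCGCGC and TTTGCCGC, and the CHR letters TTTGAA and TTCGAA, each on both strands. Matches of different E2F letters can overlap each other. The stretches below, from 120 bases before to 30 after the start and read 5′ to 3′ along the gene, show one licensing element or mitosis element each, with the matching letters in capitals (Mcm6 holds 3 matches, of which 2 overlap). All 6 genes lie on the minus strand.
Mcm3, E2F letters, chr1:20820283-20820432: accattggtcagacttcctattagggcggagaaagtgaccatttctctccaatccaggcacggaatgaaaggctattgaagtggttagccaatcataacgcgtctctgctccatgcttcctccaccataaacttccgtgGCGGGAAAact
Mcm6, E2F letters, chr1:128359676-128359825: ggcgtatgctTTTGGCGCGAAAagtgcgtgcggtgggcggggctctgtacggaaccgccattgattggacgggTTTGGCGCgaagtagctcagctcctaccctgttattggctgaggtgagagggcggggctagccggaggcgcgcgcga
Mcm7, E2F letters, chr5:138171854-138172003: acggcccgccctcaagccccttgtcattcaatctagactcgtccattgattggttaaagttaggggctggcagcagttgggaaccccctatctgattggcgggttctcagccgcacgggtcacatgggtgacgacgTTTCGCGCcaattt
Cdc20, CHR letters, chr4:118437314-118437463: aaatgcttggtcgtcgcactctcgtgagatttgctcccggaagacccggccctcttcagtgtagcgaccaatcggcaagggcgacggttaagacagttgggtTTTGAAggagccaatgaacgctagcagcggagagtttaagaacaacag
Ccnb2, CHR letters, chr9:70421525-70421674: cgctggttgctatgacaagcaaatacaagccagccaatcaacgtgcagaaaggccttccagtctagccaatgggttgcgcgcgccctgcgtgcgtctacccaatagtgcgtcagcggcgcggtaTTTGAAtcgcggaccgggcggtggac
Bub1, CHR letters, chr2:127831830-127831979: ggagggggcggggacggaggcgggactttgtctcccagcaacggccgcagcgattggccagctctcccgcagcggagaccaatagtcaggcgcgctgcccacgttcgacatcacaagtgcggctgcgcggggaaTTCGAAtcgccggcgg
Over the whole windows, E2F letters were in 8 of 18 replication promoters and 1 of 16 mitosis promoters, against 2.6% of the promoters of 27025 genes. CHR letters were in 4 of 18 replication promoters (Mcm2, Mcm7, Cdc45 and Rfc3) and 12 of 16 mitosis promoters, against 21.7%. CCAAT, searched on both strands as the box often found beside a CHR, was in 13 of 18 and 14 of 16, against 41.1%. A match describes the letters of the window and shows no binding.

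Some facts of the arrays bear on what follows. The share of probes well above background ran from 43.9% on CD45.1_in_RUNX1_mutant, the dimmest array, to 55.3% on WT, and 0 probes were saturated. Levels are log2 signal relative to the 75th percentile of the array. Double_MDS, Double_mutant and WT shared 1 slide, both CD45.1 arrays shared another with RUNX1_mutant and Ezh2_deleted, and Double_MDS_ML lay alone on its own, so for Double_MDS_ML slide and group cannot be told apart. The Y-linked genes Ddx3y and Eif2s3y were well above background on Ezh2_deleted and Double_MDS_ML and on no other array. Of the sort markers, Kit lay between 4.06 and 5.11 on every array, whereas Ly6a, which encodes Sca-1, was 0.53 on Double_MDS and 1.18 on Double_MDS_ML against 3.17 to 4.14 elsewhere. Ezh2 itself lay between 3.10 and 4.01, and whether its probe reads the deleted part is unknown from the labels and files, so the level does not check the deletion.

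The main pattern was a split between the replication and the mitosis genes. Before disease, the mitosis median of the double-mutant cells (4.37) was above both single-lesion arrays and WT (3.59), the lowest wild-type array. It lay close to CD45.1_in_RUNX1_mutant (4.24), and the replication median was close to that of WT. In the MDS mouse the replication genes were lowest, and in the MDS/ML mouse the mitosis genes were lowest. The median level of the replication genes was 4.38 on WT, 4.51 on CD45.1_in_double_mutant, 4.88 on CD45.1_in_RUNX1_mutant, 4.06 on RUNX1_mutant, 4.40 on Ezh2_deleted, 4.33 on Double_mutant, 3.25 on Double_MDS and 3.84 on Double_MDS_ML. For the mitosis genes it was 3.59 on WT, 4.00 on CD45.1_in_double_mutant, 4.24 on CD45.1_in_RUNX1_mutant, 3.42 on RUNX1_mutant, 4.00 on Ezh2_deleted, 4.37 on Double_mutant, 3.68 on Double_MDS and 2.48 on Double_MDS_ML. Across the 3 wild-type arrays these medians had SDs of 0.26 and 0.33. In bulk RNA, fewer dividing cells and less RNA of these genes per cell cannot be told apart.

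The difference between both medians (replication minus mitosis) does not depend on how an array is scaled. Taken relative to its mean over the 3 wild-type arrays (SD 0.14, n = 3), it was -0.0020 on RUNX1_mutant, -0.25 on Ezh2_deleted, -0.68 on Double_mutant, -1.08 on Double_MDS and 0.72 on Double_MDS_ML. By this measure the single-lesion arrays lay nearest the wild-type arrays, and the 3 double-mutant arrays further out, Double_MDS_ML on the opposite side from the others. When each gene's own deviation from its wild-type mean was taken first, the median was -0.10 for replication and 0.57 for mitosis genes on Double_mutant, -1.25 and -0.56 on Double_MDS, and -0.48 and -1.23 on Double_MDS_ML. With all named probes of a gene averaged, the gaps were -0.35 on Double_mutant, -0.17 on Double_MDS and 0.50 on Double_MDS_ML, with 0.25 on RUNX1_mutant. That order therefore did not hold with averaged probes, where RUNX1_mutant lay further out than Double_MDS. The 41 further replication genes and 52 further mitosis genes outside the members split in the same directions: their medians differed by -0.38 on Double_mutant, -0.39 on Double_MDS and 0.44 on Double_MDS_ML, against -0.14 to 0.16 on the wild-type arrays.

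**Figure D1:**
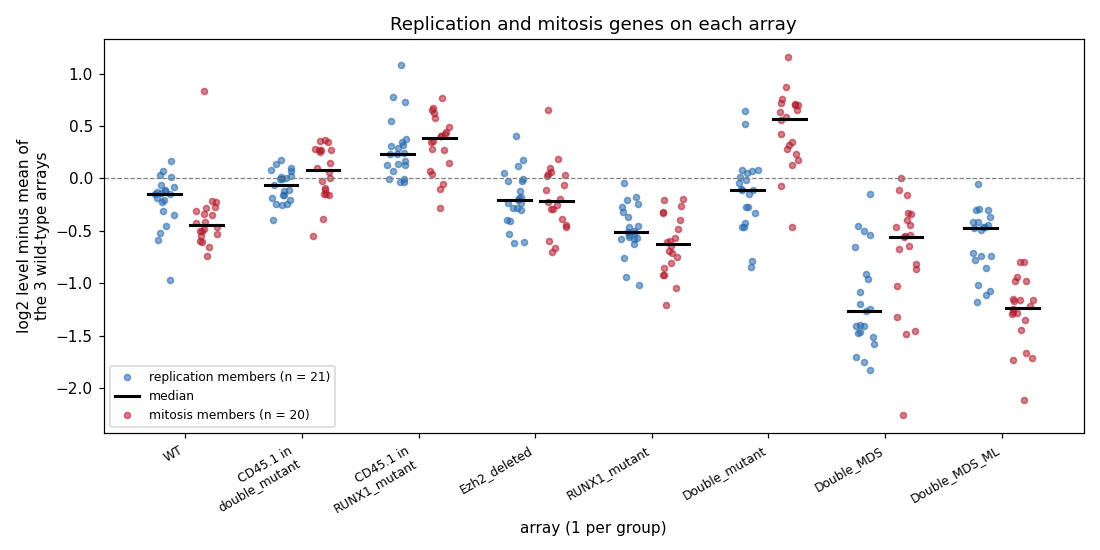
Each point is 1 gene: its log2 level on an array minus its mean over the 3 wild-type arrays (vertical axis), for the 21 replication and 20 mitosis genes well above background on all 8 arrays (horizontal axis, 1 array per group); black bars are medians. Mitosis genes sit above 0 on Double_mutant and lowest on Double_MDS_ML, and replication genes lowest on Double_MDS.

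Ranking each gene over the 8 arrays gave the same picture without any averaging over genes. Of 11297 genes well above background on all arrays, 30.9% were lowest on Double_MDS and 14.8% on Double_MDS_ML. Of the members so measured, 16 of 21 replication genes and 3 of 20 mitosis genes (Bub1b, Ttk and Top2a) were lowest on Double_MDS, against 1 of 21 (Rfc4) and 16 of 20 on Double_MDS_ML. Highest on Double_mutant were 0 of 21 replication and 10 of 20 mitosis genes, against 14.6% of all genes. Over the 7 arrays without the dim CD45.1_in_RUNX1_mutant array that last count was 15 of 20, against 26.7% of all genes. Below all 3 wild-type arrays were 21 of 21 replication and 12 of 20 mitosis genes on Double_MDS (46.1% of all genes), and 19 of 21 and 20 of 20 on Double_MDS_ML (37.4%). RUNX1_mutant also lay below all 3 wild-type arrays for 16 of 21 and 14 of 20 (30.6%). Double_mutant did so for 9 of 21 replication and 1 of 20 mitosis genes (23.7%), and was above all 3 for 0 of 21 and 10 of 20 (26%). The dimmest array, CD45.1_in_RUNX1_mutant, was highest for 16 of 21 replication and 5 of 20 mitosis genes, and for 28.9% of all genes. These counts rest on 1 array each and carry no test.

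**Figure D2:**
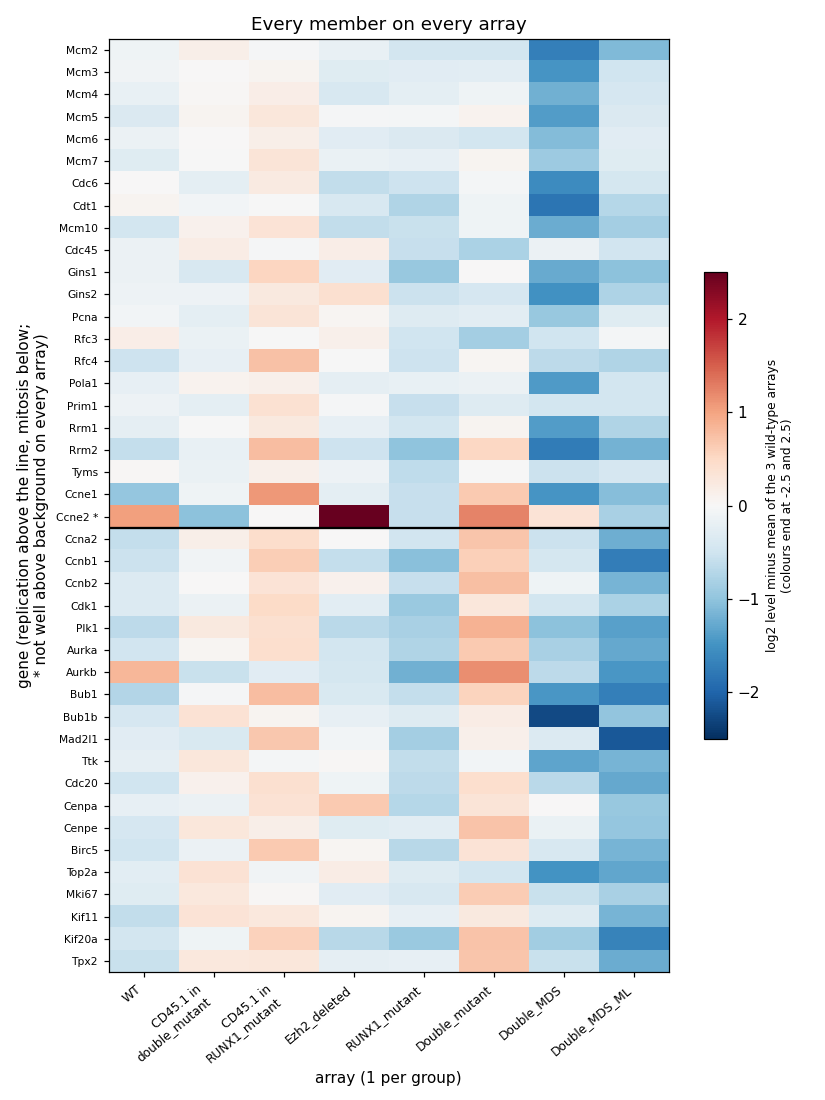
Colour gives the log2 level of each of the 42 genes (rows, replication above the line) on each array (columns, 1 per group) minus its mean over the 3 wild-type arrays. The Double_MDS column is bluest among the licensing genes at the top, and the Double_MDS_ML column among the mitosis genes; Ccne2 is marked as not well above background on every array.

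Among the licensing genes, Mcm6, a helicase subunit, was the brightest. The level of Mcm6 was 7.98 on WT, 8.12 on CD45.1_in_double_mutant, 8.26 on CD45.1_in_RUNX1_mutant, 7.75 on RUNX1_mutant, 7.83 on Ezh2_deleted, 7.66 on Double_mutant, 7.03 on Double_MDS and 7.83 on Double_MDS_ML. The helicase loader gene Cdt1 had the widest range of the 8 licensing genes. The level of Cdt1 was 6.03 on WT, 5.90 on CD45.1_in_double_mutant, 5.95 on CD45.1_in_RUNX1_mutant, 5.20 on RUNX1_mutant, 5.56 on Ezh2_deleted, 5.85 on Double_mutant, 4.13 on Double_MDS and 5.25 on Double_MDS_ML. Both were lowest on Double_MDS. All 8 licensing genes (Mcm2 to Mcm7, Cdc6 and Cdt1) were lowest there, by 0.91 to 1.83 below their wild-type means, with a median of -1.44. On Double_MDS_ML their median deviation was -0.43, and on Double_mutant -0.10. Cdc6 has a further probe, which was also lowest on Double_MDS.

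The origin firing genes were less uniform. The level of Mcm10 was 3.71 on WT, 4.26 on CD45.1_in_double_mutant, 4.51 on CD45.1_in_RUNX1_mutant, 3.61 on RUNX1_mutant, 3.54 on Ezh2_deleted, 4.05 on Double_mutant, 2.92 on Double_MDS and 3.31 on Double_MDS_ML. Mcm10 helps the helicase to start unwinding. The level of Gins2 was 2.35 on WT, 2.35 on CD45.1_in_double_mutant, 2.71 on CD45.1_in_RUNX1_mutant, 1.93 on RUNX1_mutant, 2.88 on Ezh2_deleted, 2.04 on Double_mutant, 0.96 on Double_MDS and 1.69 on Double_MDS_ML. Gins2, a GINS subunit, and Gins1 were both lowest on Double_MDS, as was Mcm10. Cdc45, the remaining partner of the active helicase, was not: it ranged from -1.05 on Double_mutant to -0.09, and was -0.41 on both Double_MDS and WT.

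Of the 5 fork synthesis genes, Pcna, the sliding clamp, was the brightest. The level of Pcna was 6.79 on WT, 6.61 on CD45.1_in_double_mutant, 7.17 on CD45.1_in_RUNX1_mutant, 6.53 on RUNX1_mutant, 6.90 on Ezh2_deleted, 6.58 on Double_mutant, 5.90 on Double_MDS and 6.55 on Double_MDS_ML. Pola1, the catalytic subunit of the polymerase that starts each new strand, had the widest range. The level of Pola1 was 3.79 on WT, 4.08 on CD45.1_in_double_mutant, 4.12 on CD45.1_in_RUNX1_mutant, 3.82 on RUNX1_mutant, 3.77 on Ezh2_deleted, 3.85 on Double_mutant, 2.59 on Double_MDS and 3.54 on Double_MDS_ML. Pola1 lay between 3.54 and 4.12 on 7 arrays and stood low on Double_MDS alone. Prim1, the primase subunit that works with it, spanned 0.95 and was lowest on RUNX1_mutant. Of the clamp loader genes, Rfc3 was lowest on Double_mutant, and Rfc4 on Double_MDS_ML (4.46, against 4.55 on Double_MDS). A dimmer Rfc4 probe was lowest on Double_MDS (1.85, against 2.11 on Double_MDS_ML).

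Nucleotide supply and cyclin E behaved in part like the mitosis genes. Rrm2 is the subunit of ribonucleotide reductase that is made in S phase. The level of Rrm2 was 4.73 on WT, 5.13 on CD45.1_in_double_mutant, 6.10 on CD45.1_in_RUNX1_mutant, 4.31 on RUNX1_mutant, 4.79 on Ezh2_deleted, 5.84 on Double_mutant, 3.57 on Double_MDS and 4.15 on Double_MDS_ML. It was high on Double_mutant and CD45.1_in_RUNX1_mutant and low on both moribund arrays. Its partner Rrm1 spanned 3.61 on Double_MDS to 5.25 on CD45.1_in_RUNX1_mutant, and Tyms, the thymidylate synthase gene, spanned 0.75. Ccne1 encodes cyclin E1, which with Cdk2 starts S phase. The level of Ccne1 was 2.19 on WT, 3.05 on CD45.1_in_double_mutant, 4.24 on CD45.1_in_RUNX1_mutant, 2.59 on RUNX1_mutant, 2.92 on Ezh2_deleted, 3.81 on Double_mutant, 1.69 on Double_MDS and 2.09 on Double_MDS_ML. Its high and low arrays were those of Rrm2, but a dimmer Ccne1 probe did not follow (r = 0.27 over the 8 arrays, a description). The level of Ccne2 was -4.80 on WT, -6.84 on CD45.1_in_double_mutant, -5.81 on CD45.1_in_RUNX1_mutant, -6.39 on RUNX1_mutant, -1.44 on Ezh2_deleted, -4.57 on Double_mutant, -5.48 on Double_MDS and -6.63 on Double_MDS_ML. Ccne2, for cyclin E2, was dim, and -1.44 on Ezh2_deleted stood alone. In the fit described below its Ezh2 deletion effect had a limma p of 0.0031 and an adjusted p of 1.00. Since 5 of the 8 arrays were not well above background for it, the size of that effect is not given.

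Mitotic cyclin genes were high before disease in the double mutant and low in the MDS/ML mouse. The level of Ccnb2 was 4.76 on WT, 5.11 on CD45.1_in_double_mutant, 5.46 on CD45.1_in_RUNX1_mutant, 4.54 on RUNX1_mutant, 5.21 on Ezh2_deleted, 5.86 on Double_mutant, 5.0 on Double_MDS and 3.95 on Double_MDS_ML. The level of Ccnb1 was 4.15 on WT, 4.59 on CD45.1_in_double_mutant, 5.30 on CD45.1_in_RUNX1_mutant, 3.64 on RUNX1_mutant, 4.08 on Ezh2_deleted, 5.27 on Double_mutant, 4.24 on Double_MDS and 2.95 on Double_MDS_ML. Both B-type cyclins were lowest on Double_MDS_ML, and on Double_MDS they lay close to WT. The 2 dimmer Ccnb1 probes were also lowest on Double_MDS_ML. Ccna2, for cyclin A2, ran from 3.18 on Double_MDS_ML to 5.10 on Double_mutant. Cdk1, their kinase, spanned 1.41 and was lowest on RUNX1_mutant, and its 2 dim further probes followed the kept one loosely (r of 0.55 and 0.58).

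The mitotic kinases had the highest median deviation from the wild-type mean of the mitosis roles on Double_mutant, at 0.88. Against WT alone they did not lead, since Aurkb was 0.33 higher there. The level of Plk1 was 4.32 on WT, 5.23 on CD45.1_in_double_mutant, 5.38 on CD45.1_in_RUNX1_mutant, 4.17 on RUNX1_mutant, 4.31 on Ezh2_deleted, 5.85 on Double_mutant, 3.95 on Double_MDS and 3.63 on Double_MDS_ML. The level of Aurkb was -1.45 on WT, -2.83 on CD45.1_in_double_mutant, -2.56 on CD45.1_in_RUNX1_mutant, -3.49 on RUNX1_mutant, -2.73 on Ezh2_deleted, -1.12 on Double_mutant, -2.93 on Double_MDS and -3.73 on Double_MDS_ML. Plk1, a kinase of spindle assembly and mitotic exit, and Aurkb, the kinase of the chromosomal passenger complex, were both highest on Double_mutant and lowest on Double_MDS_ML. Aurkb, a dim probe, was also high on WT. Aurka, the kinase of spindle poles, had the same highest and lowest array (5.28 and 3.34).

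Spindle checkpoint genes did not move as one. Cdc20 activates the ubiquitin ligase that the checkpoint restrains. The level of Cdc20 was 5.17 on WT, 5.78 on CD45.1_in_double_mutant, 6.08 on CD45.1_in_RUNX1_mutant, 5.03 on RUNX1_mutant, 5.57 on Ezh2_deleted, 6.10 on Double_mutant, 5.0 on Double_MDS and 4.40 on Double_MDS_ML. The level of Mad2l1 was 4.07 on WT, 3.97 on CD45.1_in_double_mutant, 5.03 on CD45.1_in_RUNX1_mutant, 3.50 on RUNX1_mutant, 4.29 on Ezh2_deleted, 4.49 on Double_mutant, 4.02 on Double_MDS and 2.25 on Double_MDS_ML. Mad2l1 encodes the checkpoint protein Mad2, and at 2.25 on Double_MDS_ML stood clear of the other arrays, at 3.50 to 5.03. Both of its other probes were lowest there too. Bub1, a checkpoint kinase, was low on both moribund arrays (0.69 and 0.44, against 1.41 to 2.92). Bub1b, for BubR1, was -0.28 on Double_MDS and 1.00 on Double_MDS_ML, against 1.55 to 2.33 elsewhere. Ttk, the kinase at the top of the checkpoint, was -2.79 and -2.64 there, against -2.08 to -1.19.

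Of the centromere and passenger genes, Birc5, for survivin, was the brightest and the widest in range. The level of Birc5 was 6.13 on WT, 6.47 on CD45.1_in_double_mutant, 7.28 on CD45.1_in_RUNX1_mutant, 5.94 on RUNX1_mutant, 6.67 on Ezh2_deleted, 6.97 on Double_mutant, 6.23 on Double_MDS and 5.47 on Double_MDS_ML. Its 3 probes had the same lowest array, Double_MDS_ML, and the same highest. Cenpa, the centromeric histone variant, ran from 2.60 on Double_MDS_ML to 4.19 on Ezh2_deleted. Cenpe, a kinetochore motor, ran from 3.24 on Double_MDS_ML to 4.94 on Double_mutant.

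Chromosome structure genes differed from each other. Mki67 encodes the proliferation antigen Ki-67, which coats mitotic chromosomes. The level of Mki67 was 5.65 on WT, 6.24 on CD45.1_in_double_mutant, 6.00 on CD45.1_in_RUNX1_mutant, 5.56 on RUNX1_mutant, 5.67 on Ezh2_deleted, 6.60 on Double_mutant, 5.40 on Double_MDS and 5.16 on Double_MDS_ML. The level of Top2a was 3.39 on WT, 4.03 on CD45.1_in_double_mutant, 3.56 on CD45.1_in_RUNX1_mutant, 3.33 on RUNX1_mutant, 3.84 on Ezh2_deleted, 3.19 on Double_mutant, 2.17 on Double_MDS and 2.36 on Double_MDS_ML. Top2a, the topoisomerase that untangles sister chromatids, was the 1 mitosis gene below all 3 wild-type arrays on Double_mutant, at 3.19. Both were low on the moribund arrays, Top2a lowest on Double_MDS and Mki67 on Double_MDS_ML.

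Spindle motor genes, grouped with Tpx2, closed the list. The level of Kif20a was 3.07 on WT, 3.43 on CD45.1_in_double_mutant, 4.12 on CD45.1_in_RUNX1_mutant, 2.62 on RUNX1_mutant, 2.84 on Ezh2_deleted, 4.24 on Double_mutant, 2.68 on Double_MDS and 1.87 on Double_MDS_ML. Kif20a, a kinesin of cytokinesis, was highest on Double_mutant. Tpx2, which targets Aurora A to the spindle, ran from 1.5 on Double_MDS_ML to 3.45 on Double_mutant, and Kif11, the motor that separates spindle poles, from 0.26 on Double_MDS_ML to 1.76.

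Ezh2 deletion and RUNX1S291fs were each set against WT to ask what 1 lesion does. Few members differed by 2-fold or more. On Ezh2_deleted 1 of 22 replication genes (Ccne2) was at least 2-fold higher than WT and 1 of 20 mitosis genes (Aurkb, -1.28) at least 2-fold lower, against 8.08% and 3.95% of all genes measured. The mitosis genes had a median difference of 0.24 from WT, positive in 16 of 20. Relative to the mean of the 3 wild-type arrays the sign turned, with a median deviation of -0.21, positive in 7 and negative in 13. Both single-lesion arrays lie on another slide than WT. Of WT and these arrays, only Ezh2_deleted had Y-linked RNA well above background. The part of slide and of Y-linked RNA was not tested. On RUNX1_mutant Aurkb alone passed 2-fold, at -2.03, against 6.05% of all genes lower, and the medians were -0.26 for replication and -0.17 for mitosis. Ccne2 was not compared between RUNX1_mutant and WT, since its WT level lay below the dimmest signal that RUNX1_mutant could show as well above background.

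With both lesions the mitosis genes stood apart from WT, which had the lowest mitosis median (3.59) of the 3 wild-type arrays. Double_mutant minus WT had a median of 0.94 over the mitosis genes, with 9 of 20 at least 2-fold higher against 10.7% of all genes. Plk1 was 1.53 higher (2.89-fold), Ccna2 1.30, Bub1 1.29 and Tpx2 1.25. The replication genes had a median of 0.0013, with Ccne1 (1.62) and Rrm2 (1.11) higher, and Rfc3 (-1.02) lower against 7.99%. Both arrays lie on 1 slide, and under quantile normalization 6 members in place of 12 were at least 2-fold apart. The further lists gave medians of 0.61 for other mitosis genes and 0.04 for other replication genes.

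Set against the single lesions, the same split appeared. Double_mutant minus RUNX1_mutant had medians of 1.05 for mitosis and 0.25 for replication, with 13 of 20 and 2 of 21 at least 2-fold higher (8.28% of all genes) and 0 of either lower (8.67%). The largest were Aurkb (2.36), Plk1 (1.68, or 3.20-fold), Ccnb1 (1.63) and Kif20a (1.63). Double_mutant minus Ezh2_deleted had medians of 0.67 and 0.09, with 6 of 20 and 1 of 22 at least 2-fold higher (11%). Ccne2 alone was lower, by -3.12 (11.1% of all genes), the largest difference of a member in this pair. These comparisons share the Double_mutant array, so their likeness is no independent evidence. Both single-lesion arrays also lie on another slide than Double_mutant. Against the wild-type CD45.1 cells of the same kind of recipient few members differed by 2-fold. On Double_mutant 1 of 20 mitosis genes (Aurkb, 1.71) and 0 of 21 replication genes were at least 2-fold higher (9.29%), and 0 of either lower (9.44%). The split had the same direction at a smaller size. The mitosis median was 4.37 on Double_mutant and 4.00 on CD45.1_in_double_mutant, and the replication median 4.33 and 4.51.

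RUNX1_mutant cells did lie below the CD45.1 cells of RUNX1_mutant recipients. Of 20 mitosis genes 10 were at least 2-fold lower, and of 21 replication genes 4, against 12.6% of all genes. None of either kind was at least 2-fold higher (8.91% of all genes). Rrm2 differed by -1.79, Ccnb1 by -1.66, Ccne1 by -1.65 and Mad2l1 by -1.53. That CD45.1 array is the dimmest of the 8 and the highest of the wild-type arrays: against WT it had 6 of 20 mitosis and 3 of 21 replication genes at least 2-fold higher (12.4%). The other CD45.1 array had 0 of either (4.72%). Aurkb alone was at least 2-fold lower than WT on each of both CD45.1 arrays (7.26% and 2.09% of all genes). Between both CD45.1 arrays 1 member of each kind, Ccne1 (-1.18) and Mad2l1 (-1.06), differed by 2-fold or more (9.77% of all genes lower and 7.07% higher). Under quantile normalization 8 members in place of 14 lay at least 2-fold apart between RUNX1_mutant and these CD45.1 cells. The part of array brightness in these values was not tested.

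**Figure D3:**
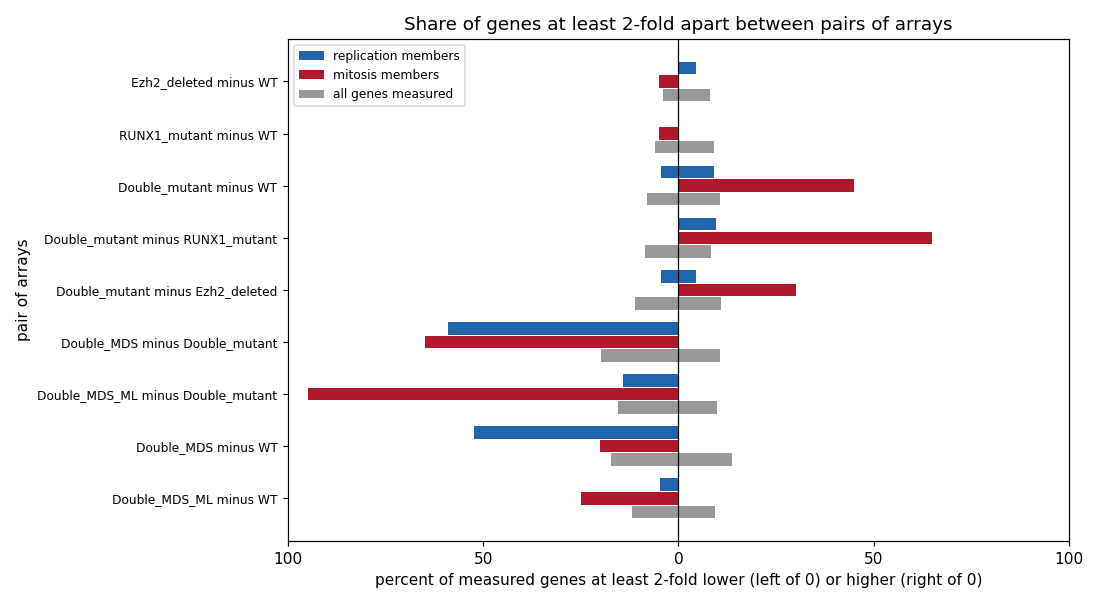
Bars give the percent of measured genes at least 2-fold lower (left) or higher (right) between 2 arrays, for replication members, mitosis members and all genes measured. Mitosis members reach 13 of 20 higher on Double_mutant against RUNX1_mutant and 19 of 20 lower on Double_MDS_ML against Double_mutant.

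The moribund mice were set against the pre-disease double mutant to ask what changes with disease. In the MDS mouse both kinds were lower: 13 of 22 replication and 13 of 20 mitosis genes were at least 2-fold lower, against 19.9% of all genes, with medians of -1.11 and -1.14. Under quantile normalization 13 members in place of 26 were at least 2-fold apart. Bub1b differed most, by -2.44 (5.41-fold lower), then Rrm2 by -2.26, Ccne1 by -2.11 and Bub1 by -2.00. In the MDS/ML mouse 19 of 20 mitosis genes were at least 2-fold lower (15.4%), the exception being Top2a, with a median of -1.80. Of 21 replication genes 3 (Gins1, Rrm2 and Ccne1) were, with a median of -0.39. None of either kind was at least 2-fold higher (9.88%). Aurkb differed by -2.61, Kif20a by -2.37 (5.18-fold lower), Ccnb1 by -2.32 and Mad2l1 by -2.24.

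Since Double_mutant was itself high in mitosis RNA, both mice were also set against WT. On Double_MDS, which shares a slide with WT, 11 of 21 replication and 4 of 20 mitosis genes were at least 2-fold lower (17.4%), with medians of -1.0 and -0.14. The 11 were Mcm2, Mcm3, Mcm4, Mcm5, Cdc6, Cdt1, Gins1, Gins2, Pola1, Rrm1 and Rrm2, led by Cdt1 at -1.90 (3.73-fold lower). On Double_MDS_ML 1 of 21 and 5 of 20 were (12.0%), with medians of -0.34 and -0.75. None was at least 2-fold higher than WT on Double_MDS (13.7% of all genes) or Double_MDS_ML (9.4%). The mitosis genes lower on Double_MDS_ML were Aurkb, Mad2l1, Ccnb1, Kif20a and Top2a. Directly compared, Double_MDS_ML was higher than Double_MDS for Cdc6 (1.13), Cdt1 (1.11), Mcm5 (1.03) and Bub1b (1.28) and lower for Mad2l1 (-1.78), Ccnb1 (-1.29) and Ccnb2 (-1.05). Over all genes 11.2% were higher and 9.17% lower. The medians were 0.61 for replication and -0.69 for mitosis. These are 2 single mice that differ in diagnosis, slide and Y-linked RNA, and the part of each was not tested.

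Tests came from a limma model of all 8 arrays with terms for Ezh2 deletion, RUNX1S291fs and moribund stage, over 13553 genes. None of the 42 members passed an adjusted p of 0.05 for any term. Over all genes the limma fit called 0 for Ezh2 deletion (0.0%, with 2.37% at an unadjusted p under 0.05), 2 for RUNX1S291fs (0.0148%, and 5.95%) and 250 for stage (1.84%, and 13.7%). With p unadjusted, 1 replication member (Ccne2) passed for Ezh2 deletion, 1 (Cdc45, -0.73) for RUNX1S291fs, and 2 replication and 5 mitosis members for stage. On simulated data of the same size the stage term found 12 of 100 genes changed by 2 on the log2 scale and 88 of 100 changed by 4. For changes of 2 the Ezh2 deletion term found 49 of 100 and the RUNX1S291fs term 57 of 100, and for changes of 4 they found 95 and 90. Changes under 2, the size of most member effects, were not simulated. Fewer genes were changed there than the stage term called in the data. The simulation therefore does not show whether differences of the size seen in the members could be called.

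The stage effect was negative for 20 of 20 mitosis genes, with a median of -1.03, and for 20 of 22 replication genes, with a median of -0.63. Over all genes its median was -0.13, or 0.03 when arrays were scaled on probes detected on every array. Bub1b had a stage effect of -1.59 (SE 0.56), Bub1 of -1.67 (SE 0.64), Ttk of -1.02 (SE 0.36) and Top2a of -1.02 (SE 0.37). The lowest adjusted p among the members was 0.26 by limma, for Bub1b. Cdc45 (0.36) and Rfc3 (0.43) were the replication genes with a positive value. Left without the Double_mutant array, the medians were -0.19 for mitosis and -0.17 for replication. Left without Double_MDS, the replication median was -0.27.

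The Ezh2 deletion effect was positive for 20 of 20 mitosis genes, with a median of 0.28 against -0.04 over all genes, and 0.03 for replication. That value rests on Double_mutant, since without it the mitosis median was -0.21. The RUNX1S291fs medians were -0.07 for mitosis and -0.29 for replication, with 0.03 over all genes. Without RUNX1_mutant these 2 medians turned, to 0.67 and 0.09. Adding a product term for the 2 genotypes asks whether the double mutant departs from the sum of both single lesions. The term was positive for 19 of 20 mitosis genes, with a median of 1.20, and for 18 of 22 replication genes, with a median of 0.38. Of the CD45.2 arrays before disease, WT and Double_mutant shared a slide and both single-lesion arrays shared another. Among those arrays the product and slide cannot be told apart. The median over all genes was 0.22, or -0.10 when scaled on probes detected everywhere. Under quantile normalization the replication median turned to -0.06 and the mitosis median was 0.82. Aurkb had a product term of 2.81 (SE 1.02), Plk1 of 2.35 (SE 0.83) and Kif20a of 2.33 (SE 0.88). The lowest adjusted p among the members was 0.73 by limma, and over all genes the fit called 0 (0.0%, with 6.54% at an unadjusted p under 0.05).

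Members with E2F letters in the promoter and members with CHR letters followed their lists. The 6 members with E2F but no CHR letters (Cdc6, Cdt1, Mcm3, Mcm5, Mcm6 and Pola1) had a median deviation from the wild-type mean of -0.13 on Double_mutant, -1.44 on Double_MDS and -0.45 on Double_MDS_ML. For the 13 with CHR but no E2F letters it was 0.32, -0.81 and -1.16. For the 12 with neither it was 0.10, -0.60 and -0.91. Mcm2 and Cdc45, replication genes with CHR letters, differed on Double_MDS: Mcm2 was -1.60 from WT, and Cdc45 was at its WT level. The promoter groups overlap the functional lists, so they are no separate evidence.

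Regulators of the cycle as a list did not share this order. Of 19 regulators 7 were lowest on Double_MDS, against 30.9% of all genes, and 3 on Double_MDS_ML, against 14.8%. E2f1, an activator of replication genes, was named after its values were seen. The level of E2f1 was 3.28 on WT, 3.42 on CD45.1_in_double_mutant, 3.61 on CD45.1_in_RUNX1_mutant, 3.45 on RUNX1_mutant, 3.38 on Ezh2_deleted, 3.40 on Double_mutant, 1.90 on Double_MDS and 3.25 on Double_MDS_ML. It spanned 3.25 to 3.61 on 7 arrays and was low on Double_MDS alone. E2f2 and E2f3 of the same list were not lowest there. E2f2 was 2.87 on Double_MDS and 2.78 on WT, and E2f3 was 1.33 on Double_MDS and 1.32 on RUNX1_mutant. The level of Foxm1 was 1.16 on WT, 2.04 on CD45.1_in_double_mutant, 1.64 on CD45.1_in_RUNX1_mutant, 1.64 on RUNX1_mutant, 1.88 on Ezh2_deleted, 2.20 on Double_mutant, 1.09 on Double_MDS and 0.64 on Double_MDS_ML. Foxm1, the activator of mitosis genes, was lowest on Double_MDS_ML and highest on Double_mutant. The level of Mybl2 was 3.44 on WT, 4.54 on CD45.1_in_double_mutant, 5.0 on CD45.1_in_RUNX1_mutant, 4.40 on RUNX1_mutant, 4.16 on Ezh2_deleted, 5.36 on Double_mutant, 3.90 on Double_MDS and 3.73 on Double_MDS_ML. Mybl2 was highest on Double_mutant and lowest on WT. None of the 19 passed for any term. Their largest stage effects were E2f8 at -1.34, Foxm1 at -1.25 (SE 0.43, adjusted p = 0.24 by limma) and Mybl2 at -1.21.

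The wider pathway lists held 0 genes that passed. Of 41 other replication genes, 34 had a negative stage effect (median -0.51), with Prim2, Dut and Rfc2 the largest. Of 52 other mitosis genes, 50 had (median -0.84), with 20 at an unadjusted p under 0.05, and Ncaph, Kif2c and Ckap2l the largest. Lowest on Double_MDS were 28 of 41 and 13 of 52, and on Double_MDS_ML 4 of 41 and 33 of 52. Among CDK inhibitors, Cdkn2a, which encodes p16 and p19, was well above background on 5 of 8 arrays. Its level was 2.41 on Double_MDS_ML, 1.92 on Double_MDS, 0.77 on Ezh2_deleted, -0.92 on Double_mutant and -3.00 on the wild-type CD45.1_in_double_mutant array. WT, RUNX1_mutant and CD45.1_in_RUNX1_mutant were not well above background. Ezh2_deleted was at least 64.8-fold above WT, taken against the lowest signal well above background on WT. The Ezh2 deletion effect had an adjusted p of 0.70 by limma.

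Markers of other cell states also differed between the arrays, not all in the order of the mitosis genes. Myeloid progenitor genes (8 of 8 well above background on every array) had a median level of 3.35 on WT, 4.83 on CD45.1_in_double_mutant, 7.09 on CD45.1_in_RUNX1_mutant, 4.93 on RUNX1_mutant, 3.02 on Ezh2_deleted, 8.14 on Double_mutant, 3.09 on Double_MDS and 1.78 on Double_MDS_ML. The arrays high and low for mitosis RNA, Double_mutant and Double_MDS_ML, were thus also highest and lowest for these markers. Mast cell and basophil markers (5 of 8 well above background on every array) had a median of 3.32 on Double_mutant, the highest, of 2.00 on RUNX1_mutant, of -2.45 on Double_MDS_ML, the lowest, and of -0.64 to 0.17 on the wild-type arrays. Neutrophil granule markers had medians of 5.24 on Double_mutant, 4.52 on Double_MDS and -3.10 on Double_MDS_ML. Megakaryocyte markers had medians of 4.85 and 4.88 on the moribund arrays, against -0.64 to 2.46 elsewhere, and the limma stage effects of Clec1b (5.80, adjusted p = 0.0154) and Gp6 (4.13, adjusted p = 0.0274) passed. Of 12 LSK and stem cell markers, the stage effect was negative for 8 and positive for 4, up to 2.25. The 4 that passed by limma were all lower: Cd34 (-3.70, adjusted p = 0.0115), Flt3 (-5.46, 0.0126), Procr (-5.85, 0.0327) and Ly6a (-2.26, 0.0367). Of 8 erythroid markers tested, 6 had a negative stage effect and 2 a positive one, up to 1.53. Rhd alone of these passed by limma (-2.47, adjusted p = 0.0410). Well above background of 9 B cell markers were 9 on Ezh2_deleted and 3 on Double_MDS. The part of cell type makeup in the replication and mitosis values was not tested.

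**Figure D4:**
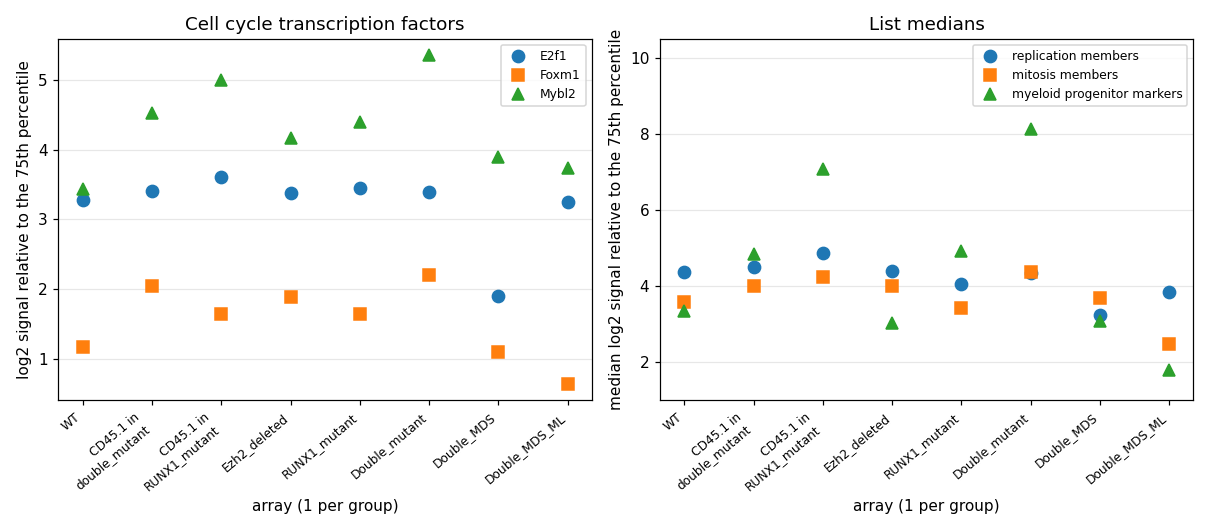
Left, log2 levels of E2f1, Foxm1 and Mybl2 on each array (1 per group); right, median log2 levels of the replication genes, the mitosis genes and 8 myeloid progenitor markers. E2f1 is low on Double_MDS alone, and myeloid progenitor markers are highest on Double_mutant and lowest on Double_MDS_ML, as the mitosis genes are.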

How the data were processed

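RNA was measured in sorted marrow LSK cells on 8 one-colour arrays, 1 per group. Per the labels' protocols, 20 ng of total RNA was amplified and labelled with Cyanine 3. Agilent Feature Extraction 10.7.1.1 read the spots of array design 028005, per the file headers. Its processed intensity, as deposited, had the background of that array taken off and was not scaled to other arrays. Pixel medians of spots and of their surroundings were deposited as raw intensity. The series table deposited by the authors holds linear signal, which equalled the processed signal up to 1 scaling factor for each array. All 8 of its columns were used, and 0 were left out.

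Spots flagged as outliers were dropped, spots of a probe were averaged, and the log2 of the processed signal was set relative to the 75th percentile of that array. Of 55681 probes 27235 were named through transcript accessions (RefSeq, GRCm38.p6, names only), giving 20660 genes; 1153 probes carried other accessions in the Double_MDS_ML file, and the names of the other files were used. Genes with several probes (5476) kept the one with the highest mean. As arrays hold no counts, their number limits the precision.

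Pairs of arrays were compared over genes detected (well above background) on either array. Values below background were set to the lowest detected signal on that array, genes whose detected value lay below that bound were left out, and differences were described at 2-fold without a test. Limma 3.58.1 in R 4.3.3 fitted additive terms to genes detected on 3 or more arrays (4 residual and 3.12 prior degrees of freedom), with Benjamini-Hochberg adjustment over all genes and a threshold of 0.05. Its residual spread mixes differences among the 3 wild-type and among the 2 moribund arrays with any departure from additivity, so p-values measure only the spread between these samples. The terms of the additive fit were tested on simulated data, and the product term was not. Tables were made with Python 3.11.15.

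The members were given as 42 gene names. They and the other lists were chosen with earlier results of these data known. In each of 11 roles the 8 values are given for the brightest member and the one with the widest range. Of the other lists, up to 3 genes with the largest effect per term and any gene that passed are named; E2f1 and markers set beside a result fall outside that rule. Pairs of Double_MDS, Double_MDS_ML and both CD45.1 arrays with WT, and the ranks of genes over arrays, were added after seeing the data. The normexp alternative (offset 50) was planned on mean spot intensity and was run on median spot intensity.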

Additional observations from a re-analysis of the deposited data

Results flagged for a closer look

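Directions of 1 contrast that were opposite in 2 settings are given here as values. With 1 array a group these differences between list medians were not tested, and no member passed the limma test of the product of both genotypes.

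RUNX1S291fs went with a median difference over the mitosis genes of -0.17 where Ezh2 was intact (RUNX1_mutant minus WT) and of 0.67 where it was deleted (Double_mutant minus Ezh2_deleted). Over the replication genes the corresponding medians were -0.26 and 0.091. Ezh2 deletion went with a replication median of -0.0019 without RUNX1S291fs (Ezh2_deleted minus WT) and of 0.25 with it (Double_mutant minus RUNX1_mutant). Every one of these values uses 2 of the same 4 arrays. WT and Double_mutant shared a slide and both single-lesion arrays another, so the slides switch sides between both settings of each contrast. The part of slide in these values was not tested.

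Between both moribund mice, replication minus mitosis relative to the wild-type mean was -1.08 in the MDS mouse and 0.72 in the MDS/ML mouse. Its sign on each of these arrays was the same under all 6 other summaries tried.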

How the results depend on the processing

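With 1 array a group, pairs of arrays have no error of their own, and medians were set against the SD over 3 wild-type arrays. The labels' replicate numbers pair no arrays, since all are 1. They do name the recipients of the CD45.1 cells, so a fit with recipient as a random replicate block was added, with CD45.1 and CD45.2 cells of 1 kind of recipient paired. Its correlation, from 2 pairs, was estimated at -0.77. It called 0 genes for Ezh2 deletion, 0 for RUNX1S291fs and 353 for stage, 0 members for any of these, and gave a stage median of -1.42 for mitosis; the product term could not be fitted. That block and the alternatives for gene ranks and for deviations from wild-type means were chosen after seeing the data. Of the recomputed values 379 stayed within those limits, 35 moved, 4 turned in sign, 28 counts fell and 10 rose by over 1.5 times. Among the first were the counts of genes lowest on Double_MDS and Double_MDS_ML under normexp (17 and 17), quantile normalization (17 and 16) and averaged probes (16 and 16). The cause of the changes below was not tested.

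Leaving out 1 array at a time gave medians of -0.21 to 1.05 for mitosis under Ezh2 deletion, -0.52 to 0.091 for replication and -0.63 to 0.67 for mitosis under RUNX1S291fs, and -1.02 to -0.17 and -1.39 to -0.19 for stage. Calls over all genes then ran from 0 (without WT and others) to 10 (without CD45.1_in_RUNX1_mutant) for RUNX1S291fs, and from 0 (without Double_mutant) to 381 (without Double_MDS_ML) for stage, with 70 without WT and 81 without CD45.1_in_double_mutant. RUNX1S291fs calls (2) became 1 under normexp or averaged probes, 5 under quantile, 9 with no stage term, 4 on month 4 arrays, and 0 with the slide block, the detected-probe percentile, or either other filter on dim genes. Stage calls (250) became 152 among genes above background on all arrays, 150 with no filter and 74 with slide as a block. With no stage term the mitosis medians were -0.071 for Ezh2 deletion and -0.49 for RUNX1S291fs. With slide as a block the stage median of replication was -1.06, and the product medians were 0.76 and 2.05. The product medians were -0.065 and 0.82 under quantile normalization, and 0.060 for replication on the detected-probe percentile.

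Members at least 2-fold apart became, under normexp, 1 for Ezh2_deleted minus WT, 0 for RUNX1_mutant minus WT and 0 between the CD45.1 arrays. Under quantile normalization there were 6 for Double_mutant minus WT, 13 for Double_MDS minus Double_mutant, 8 for RUNX1_mutant minus its CD45.1 cells and 0 between the CD45.1 arrays. Averaged probes gave 2 for RUNX1_mutant minus WT and 0 between the CD45.1 arrays. Measured values in place of bounds gave 2 for RUNX1_mutant minus WT and 2 for Double_mutant minus its CD45.1 cells. Quantile medians of replication genes were -0.18 for Double_mutant minus Ezh2_deleted, -0.85 for Double_MDS minus Double_mutant, -0.35 for Double_mutant minus its CD45.1 cells and 0.056 between the CD45.1 arrays, where mitosis gave 0.055.

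Replication minus mitosis relative to wild type, with averaged probes, was -0.17 on Double_MDS, 0.50 on Double_MDS_ML, -0.35 on Double_mutant, 0.25 on RUNX1_mutant and -0.088 on Ezh2_deleted. Under normexp it was -1.28 on Double_MDS and 0.35 on Double_MDS_ML. With means in place of medians it was 0.20 on Ezh2_deleted and -0.38 on Double_MDS, and with deviations 0.023 and -0.69. In the shorter promoter window 2 replication promoters held CHR letters.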

Other observations

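The D-type cyclins, which carry growth signals into G1, did not follow either list. Ccnd1 was 0.97 on Double_mutant, 0.57 on Double_MDS and -0.12 on Double_MDS_ML, against 2.54 to 3.51 on the other 5 arrays, so it was low on every array with both lesions, including the pre-disease array where mitosis RNA was high. Its stage effect was -1.21 (SE 0.58, adjusted p = 0.44 by limma) and its product term -1.56 (SE 0.84, adjusted p = 0.83). Ccnd2 was 1.76 on Double_MDS, against 2.99 on Double_mutant, 4.34 on Double_MDS_ML and 3.77 to 4.83 elsewhere. Ccnd3, named after its values were seen, lay between 5.90 and 6.35 on every array.

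Cdkn1a, which encodes the CDK inhibitor p21, was 1.69 on WT, 2.59 on CD45.1_in_RUNX1_mutant, 3.61 on CD45.1_in_double_mutant, 5.30 on RUNX1_mutant, 4.35 on Ezh2_deleted, 1.68 on Double_mutant, 5.18 on Double_MDS and 2.79 on Double_MDS_ML. Both single-lesion arrays lay above the 3 wild-type arrays, each by less than the span of those 3, and Double_mutant lay at WT, the lowest of them. Its product term was -5.33 (SE 1.68, adjusted p = 0.69 by limma). E2f5, a repressive E2F, had a product term of -2.70 (SE 0.70, adjusted p = 0.69).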
